A study of Homo sapiens with 9 samples.

Results

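The data were called intervals of RBPJ CUT&Tag in HEK293T cells that were wild type or knockout for FBXO42. CUT&Tag directs a transposase with an antibody to the chromatin beside a protein, and a called interval (a peak) is a stretch where the tagged fragments piled up over the background. All intervals of both lists on chromosomes 1 to 22 and X were taken, which gave 42655 in wild type and 36877 in knockout. These 79532 intervals were part of 174109 in the 6 lists of the series. HEK293T is a human line of embryonic kidney origin. The knockout was made by infection with lentiviral CRISPR constructs, and the sources used here do not give whether the cells were 1 clone or a pool. Each arm had 1 library, so the spread between replicates is unknown, no test between the arms was made, and every difference given is between 2 libraries.

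The series asks whether FBXO42 alters the DNA binding of RBPJ and the state of chromatin. Its other lists were used here for reference only. They came from RBPJ CUT&Tag libraries titled RBPJ and RBPJK175R, both HEK293T with the genotype label FBXO42 knockout, and from ATAC-seq of Jurkat cells, a leukaemic T cell line, that were wild type or knockout for FBXO42. ATAC-seq marks open chromatin by where a free transposase can cut.

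RBPJ is the DNA-binding protein of the Notch pathway and recognises sites with the core TGGGAA. It recruits corepressors when Notch is silent, and it activates the same genes when the cleaved intracellular part of a Notch receptor and a Mastermind coactivator join it. FBXO42 is an F-box protein, the part of a ubiquitin ligase that holds the substrate.

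A start is the transcription start of a protein-coding gene, and an interval was placed at a start where its summit, the position of its highest pileup, lay within 1 kb of one. FBXO42 itself had a start interval in both lists, with 90 reads at the summit in wild type and 39 in knockout. An interval shows a call near a gene and is no level of its product, so the lists hold no check of the knockout. Of 9 marker genes of the HEK293T line, 6 had a start interval in wild type and 5 in knockout. The mesenchymal genes VIM and CDH2 held 98 and 54 summit reads in wild type and 65 and 21 in knockout, and PAX2, a kidney regulator, held 29 and 23. LHX1 and EYA1 had none in either list. Of the 9 T cell markers found in the annotation only LCK had a start interval, at different starts of the gene in the 2 lists.

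Promoters from each outcome are shown so that the position of the RBPJ core can be read against the summits. They were chosen after their values were seen. Each is the 250 bases before the start, 5′ to 3′ along the gene, from RefSeq on GRCh38.p14, in lower case with TGGGAA or its reverse complement TTCCCA in capitals. HES1 and HES4 encode basic helix-loop-helix repressors and are known Notch targets. HNRNPLL encodes a splicing regulator, EARS2 the mitochondrial glutamyl-tRNA synthetase, and COPE a subunit of the COPI vesicle coat. These 5 had a start interval in both lists. ZNF383, a zinc finger gene, and EIF2D, a translation initiation factor gene, had one in wild type only, and the zinc finger gene ZNF212 had one in knockout only. The windows were chr3:194135898-194136147 on the plus strand, chr1:1000098-1000347 on the minus strand, chr2:38602929-38603178 minus, chr16:23557376-23557625 minus, chr19:18919388-18919637 minus, chr19:37217964-37218213 plus, chr1:206612466-206612715 minus and chr7:149239401-149239650 plus.
HES1: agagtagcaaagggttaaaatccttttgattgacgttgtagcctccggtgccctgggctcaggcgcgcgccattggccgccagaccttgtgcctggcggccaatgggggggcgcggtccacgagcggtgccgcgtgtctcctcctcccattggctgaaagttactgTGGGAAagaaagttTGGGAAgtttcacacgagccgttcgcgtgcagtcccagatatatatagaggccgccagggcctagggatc
HES4: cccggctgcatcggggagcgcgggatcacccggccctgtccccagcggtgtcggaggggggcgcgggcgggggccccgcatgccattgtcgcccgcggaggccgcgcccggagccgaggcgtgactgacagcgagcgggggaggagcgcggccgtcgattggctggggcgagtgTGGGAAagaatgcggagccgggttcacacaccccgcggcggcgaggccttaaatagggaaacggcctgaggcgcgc
HNRNPLL: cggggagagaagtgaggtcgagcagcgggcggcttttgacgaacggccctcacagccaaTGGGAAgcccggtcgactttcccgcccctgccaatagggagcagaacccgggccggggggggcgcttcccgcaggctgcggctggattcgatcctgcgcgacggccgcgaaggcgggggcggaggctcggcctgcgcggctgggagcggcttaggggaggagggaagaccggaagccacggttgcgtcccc
EARS2: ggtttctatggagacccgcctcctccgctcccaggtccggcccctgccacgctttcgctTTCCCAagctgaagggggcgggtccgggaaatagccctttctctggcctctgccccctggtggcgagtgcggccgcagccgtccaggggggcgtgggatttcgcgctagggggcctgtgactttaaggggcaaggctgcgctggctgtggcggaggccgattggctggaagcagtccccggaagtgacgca
COPE: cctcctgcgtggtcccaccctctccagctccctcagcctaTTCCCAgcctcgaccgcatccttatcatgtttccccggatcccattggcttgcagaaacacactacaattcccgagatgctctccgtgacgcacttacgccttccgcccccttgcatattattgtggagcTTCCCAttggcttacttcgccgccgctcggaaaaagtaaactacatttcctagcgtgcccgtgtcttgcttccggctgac
ZNF383: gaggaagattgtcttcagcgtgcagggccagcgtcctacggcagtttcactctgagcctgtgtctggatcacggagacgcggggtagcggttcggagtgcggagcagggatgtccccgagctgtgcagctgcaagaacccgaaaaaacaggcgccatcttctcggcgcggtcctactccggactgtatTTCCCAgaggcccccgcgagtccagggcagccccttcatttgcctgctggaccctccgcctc
EIF2D: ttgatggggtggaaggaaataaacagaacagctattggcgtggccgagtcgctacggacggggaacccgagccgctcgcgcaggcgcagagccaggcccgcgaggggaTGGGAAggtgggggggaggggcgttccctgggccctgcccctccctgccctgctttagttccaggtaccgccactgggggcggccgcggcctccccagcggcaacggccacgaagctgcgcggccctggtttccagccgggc
ZNF212: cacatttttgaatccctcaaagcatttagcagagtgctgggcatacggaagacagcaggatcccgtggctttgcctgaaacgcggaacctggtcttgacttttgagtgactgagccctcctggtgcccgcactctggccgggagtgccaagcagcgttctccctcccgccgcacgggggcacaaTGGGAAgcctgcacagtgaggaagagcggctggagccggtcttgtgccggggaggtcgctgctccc

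At HES1 the copies of the core began 84 and 70 bases before the start. Relative to the start, the wild-type summit lay at −31, with 416 reads, while the knockout summit, with 165 reads, lay at −1294, outside the printed window. At HES4, with 957 and 296 summit reads, the core lay 76 bases before the start and the summits at −307 and −211. The positions at the other genes in both lists were closer to each other. At HNRNPLL the core was 191 bases before the start, and the summits were at −67 in wild type, with 137 reads, and −43 in knockout, with 55 reads. At EARS2 the summits were at −109 and −110, with 716 and 343 reads, and TTCCCA began 191 bases before the start. At COPE the summits were at −111 and −89, with 294 and 201 reads, between copies of TTCCCA that began 210 and 80 bases before the start. The genes with an interval in 1 list had fewer reads than these 5 genes had in the same list. ZNF383 had 71 reads at a wild-type summit at −81, close to TTCCCA that began 62 bases before the start. EIF2D had 31 reads in wild type with the summit at −8, away from its core at 142 bases before the start. ZNF212 had 19 reads in knockout, with the summit 136 bases past the start and the core 66 bases before it. A match to these letters is a description and not evidence of binding.

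Shared intervals, those with at least 1 bp in the other list, were the wide and deep ones. In wild type 13698 intervals were shared and 28957 were not, and in knockout 14049 were shared and 22828 were not. The median width was 1073 bp for shared and 453 bp for unshared intervals in wild type (with quartiles of 603 and 1746, and of 368 and 632). In knockout it was 892 bp and 519 bp (with quartiles of 565 and 1450, and of 410 and 726). So the shared intervals were wider in wild type than in knockout, and the unshared ones were wider in knockout than in wild type. The knockout median of unshared width was the greater on 23 of 23 chromosomes. The shortest width called in the whole list was 309 bp in wild type and 340 bp in knockout, and unshared intervals lay near it. Such a floor holds for a whole list, so the chromosomes are no separate support. Its part in the difference was not tested. Intervals over 2 kb made up 19.2% of shared and 0.591% of unshared wild-type intervals, and 13.3% and 0.942% in knockout. A wide interval has more bases that can meet another, so these widths describe the classes and test nothing.

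The reads piled up at a summit followed the same order. The median was 29 for shared and 13 for unshared wild-type intervals, and 21 and 13 in knockout. The summit lay in the middle 50% of the interval in 69.8% of shared and 57.9% of unshared wild-type intervals, and in 66.6% and 55.2% in knockout. Few unshared intervals had a summit of the other list close by. The closest summit of the other list was within 1 kb for 4.70% of unshared wild-type and 5.85% of unshared knockout intervals, and the median distance was 11388 bp and 6314.5 bp.

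Where each interval met exactly 1 interval of the other list, the pair could be compared directly. There were 11680 such pairs. Their summits were 145 bp apart in the median (quartiles 50 to 332), and 405 pairs were more than 1 kb apart. Distance went with the reads behind the pair. Pairs with up to 30 summit reads in both libraries together were 242 bp apart and those with over 120 were 51 bp apart. Both summits lay inside both intervals in 43.2% of the former and 99.8% of the latter.

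Over all pairs, those at starts and those elsewhere gave different values for the arms. At starts the median width was 1410 bp in wild type and 971 bp in knockout, and the wild-type interval was the wider in 76.3% of 5176 pairs. Away from starts the medians were 739 bp and 779 bp, and wild type was the wider in 50.3% of 6504 pairs. The median ratio of knockout to wild-type summit reads was 0.539 at starts and 0.857 away from them, with no scaling between the libraries. Read totals are unknown. The lowest background that the lists hold was 1.77 reads in wild type and 1.63 in knockout. It also depends on the calling settings, which are not known here, so it is no plain measure of depth. Summits were 97 bp apart at starts and 198 bp apart elsewhere.

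The pairs at starts were also the deeper ones, with a median of 56 wild-type summit reads against 19 elsewhere, and the reads moved with these values. Over the pairs with up to 30, 31 to 60, 61 to 120 and over 120 summed summit reads, wild type was the wider in 42.0%, 53.3%, 78.5% and 79.8%. The ratio of knockout to wild-type reads was 1, 0.818, 0.511 and 0.494. Both intervals of a pair had to be called. In the lowest band, with medians of 13 reads in wild type and 12 in knockout, this left little room for an unequal ratio. How far this limit sets the trend over bands, and the ratios at starts and elsewhere, was not tested. Within these bands, a split made after the data were seen, the settings were closer to each other where reads were many. With over 120 reads wild type was the wider in 80.4% of 1641 pairs at starts and 77.6% of 468 elsewhere, the read ratio was 0.493 and 0.496, and the summits were 52 and 49.5 bp apart. With 31 to 60 reads wild type was the wider in 69.0% of 1447 pairs at starts and 46.6% of 3362 elsewhere, and the read ratio was 0.652 and 0.905.

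Some single pairs were far from these medians. At IGFBP5, the gene of a binding protein for insulin-like growth factors, the wild-type interval measured 3147 bp and the knockout interval 399 bp. FOXF1, a forkhead factor gene, had 3871 bp and 536 bp, and NPTX1, a neuronal pentraxin gene, 3355 bp and 473 bp. The summit reads of these 3 pairs ran between 41 and 44 for wild type and between 14 and 16 for knockout, close to the median of the knockout list, 15. The opposite order was seen at CHMP6, an ESCRT-III gene, with 309 bp in wild type and 3742 bp in knockout, and at NADK, the gene of NAD kinase, with 677 bp and 5938 bp. CHMP6 had 12 and 30 summit reads and NADK 22 and 34. MGAT1, a gene of N-glycan synthesis, had widths of 315 bp and 2510 bp with 24 and 22 reads, and the cyclin-dependent kinase gene CDK10 had 318 bp and 2137 bp with 43 and 23 reads. Long shifts of the summit within a pair were seen at MXI1, the gene of a MAX partner, with 3439 bp, at ORAI3, a calcium channel gene, with 2554 bp, and at ASIC3, an ion channel gene, with 2317 bp. The MXI1 intervals covered 6601 and 5639 bp, with 123 and 54 reads.

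The setting of shared intervals was nearly the same in both arms, and that of unshared intervals was not. Shared intervals were at a start in 43.2% of cases for wild type and 42.4% for knockout. The shared intervals of the lists overlap each other by definition, so their like settings largely follow from the class and are no result. Among unshared intervals 14.55% of wild-type (95% Clopper-Pearson interval 14.1 to 14.96) and 4.99% of knockout (4.71 to 5.28) were at a start. The intervals given here cover counting error only. The unshared wild-type intervals were more often at a start on 22 of 23 chromosomes, X being the exception. Unshared knockout intervals were instead in gene bodies in 58.1% of cases, and the wild-type ones in 48.8%. Both arms had unshared intervals more than 10 kb from any protein-coding gene, at 24.5% in wild type and 21.1% in knockout. Counted the other way, 84.0% of the 7092 knockout intervals at starts were shared, and 58.4% of the 10124 in wild type.

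Within genes, unshared knockout intervals lay further along and in shorter genes. The median position, from 0 at the start to 1 at the end, was 0.548 in knockout and 0.465 in wild type. The first 20% of the gene held 17.3% of them in knockout and 24.9% in wild type. The median length of the host gene was 58.8 kb in knockout and 88.3 kb in wild type. The unshared knockout intervals also lay in denser regions, with a median of 14 protein-coding genes within 500 kb against 10 in wild type, and the density was higher in knockout on 19 of 23 chromosomes. They were closer to each other too, since 55.9% had another interval of their own list within 5 kb, against 43.7% in wild type. A start of a long noncoding RNA lay within 1 kb of few unshared intervals away from protein-coding starts. The shares were 1.83% in wild type and 1.52% in knockout. For shared intervals they were 4.61% and 4.76%.

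At starts whose strand is known, shared summits formed 2 groups on either side of the start. The median position was 44 bp before the start in wild type and 17 bp before it in knockout (−44 and −17 along the gene). Of these summits 65.0% in wild type and 62.4% in knockout were within 250 bp of the start. Unshared wild-type summits had a similar form, with a median 41 bp past the start and 57.7% within 250 bp. The 765 unshared knockout summits did not, since 28.2% were within 250 bp and 46.5% were beyond 500 bp. Within 4333 pairs the knockout summit moved by a median of 1 bp along the gene relative to wild type (quartiles −84 to 105).

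**Figure D1:**
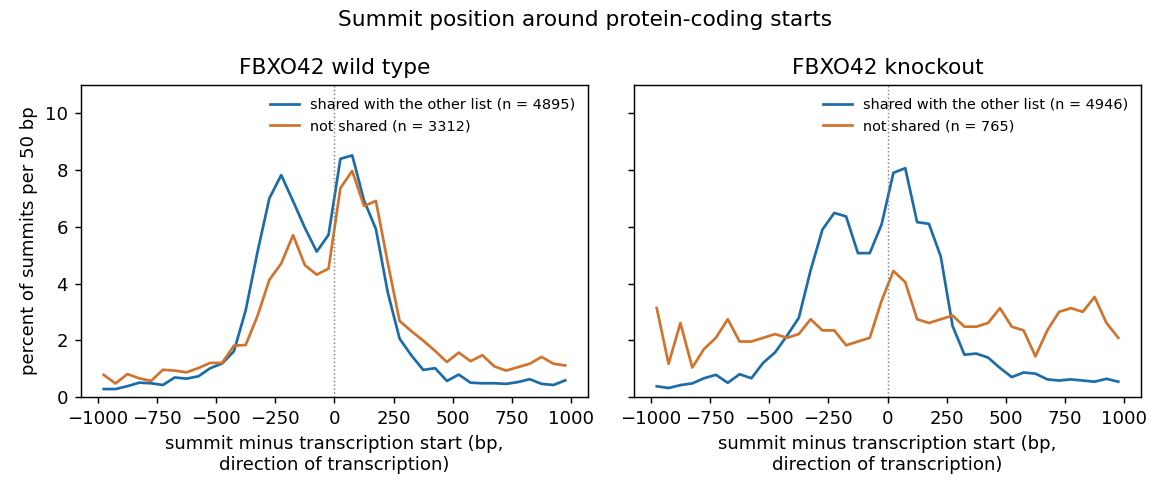
Position of the summit relative to the transcription start along the gene, as the percent of summits per 50 bp, for each list and class. Shared summits and unshared wild-type summits gather within 250 bp on either side of the start, while unshared knockout summits (n = 765) spread over the whole window with a low rise at the start.

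The lists from other libraries gave a measure that the sharing did not use. Among intervals away from starts, 12.7% of unshared wild-type intervals (12.3 to 13.1) overlapped a Jurkat ATAC interval of either genotype, against 3.24% of unshared knockout intervals (3.005 to 3.48). The shared intervals there, which overlap each other by definition, did so in 34.7% and 34.5% of cases. At starts the shares were 68.2% for unshared wild-type, 14.7% for unshared knockout, and 88.6% and 86.9% for shared intervals. The difference away from starts had the same direction on 23 of 23 chromosomes, with shares of 6.52% to 19.2% for wild type and 2.04% to 5.41% for knockout. Among intervals 400 to 600 bp wide, a limit chosen after the data were seen, the shares away from starts were 11.2% and 2.97% for unshared and 13.9% and 26.5% for shared intervals. The shared intervals of the arms thus no longer had like shares at these widths, and in wild type shared and unshared ones were closer. At starts, unshared wild-type intervals of these widths had the higher share, 61.1% against 53.2% of the shared ones, the reverse of the order over all widths. In knockout the shares at starts were 18.7% of unshared and 78.3% of shared intervals. The ATAC cells are of another line, and open chromatin of HEK293T was not analysed here.

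The other RBPJ lists gave a different order. Away from starts, either of them held 10.2% of unshared wild-type (9.81 to 10.6) and 13.997% of unshared knockout intervals (13.54 to 14.47). These libraries share the FBXO42 knockout label with the knockout arm. Shared intervals were found there in 48.0% and 49.9% of cases. At starts the order was the reverse, with 36.2% of unshared wild-type and 21.6% of unshared knockout intervals. At widths of 400 to 600 bp both orders held, with 8.45% and 10.6% away from starts and 26.6% and 18.2% at them.

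**Figure D2:**
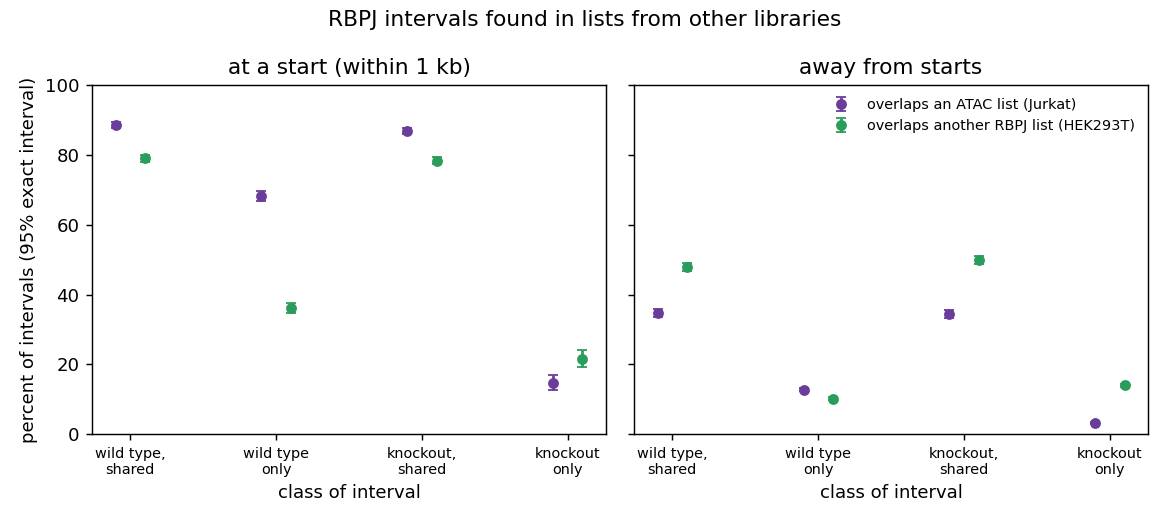
Percent of intervals of each class that overlap an ATAC list from Jurkat cells (purple) or another RBPJ list from HEK293T cells (green), at starts and away from them, with exact 95% bars that cover counting error. Unshared knockout intervals have the lowest overlap with ATAC in both panels, 14.7% and 3.24%.

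The arms also differed by chromosome, and mainly away from starts. The number of knockout over wild-type intervals at starts ran from 0.483 on chromosome 3 to 0.872 on chromosome 1, and it was below 1 on all 23 chromosomes. For unshared intervals away from starts it ran from 0.307 on chromosome X to 1.86 on chromosome 21. It was over 1 on 7 chromosomes, namely 1, 14, 16, 17, 19, 21 and 22. Chromosome 1 had 2846 such intervals in wild type and 4566 in knockout, and chromosome 3 had 869 and 314.

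**Figure D3:**
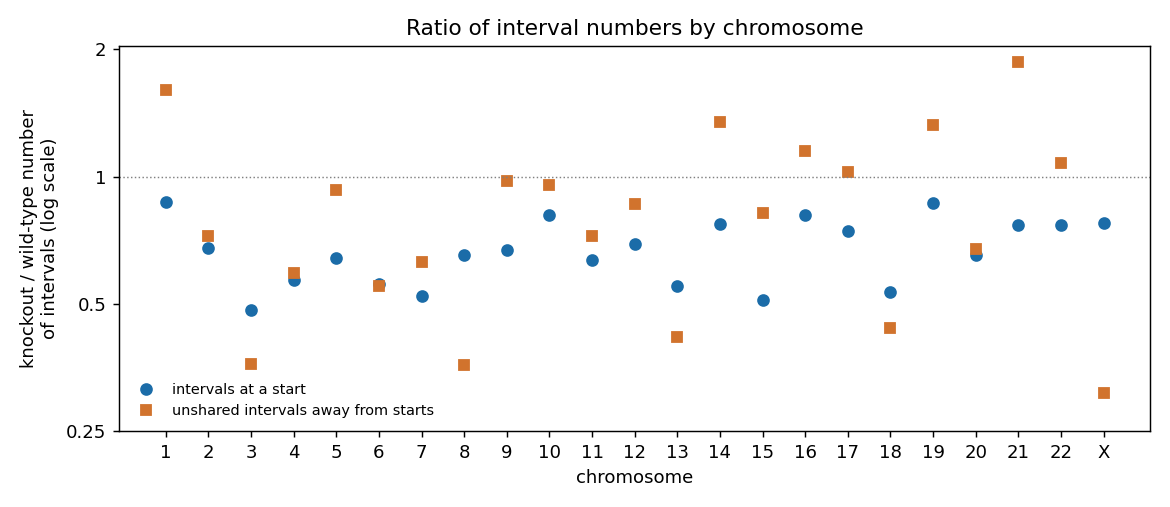
Number of knockout intervals divided by the number of wild-type intervals for each chromosome, on a log scale, for intervals at starts (circles) and for unshared intervals away from starts (squares). The circles lie between 0.483 and 0.872 and the squares between 0.307 and 1.86.

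Of 19973 protein-coding genes, 7152 (35.8%) had a start interval in both lists, 3665 (18.3%) in wild type only, 762 (3.82%) in knockout only and 8394 (42%) in neither. In all, 54.2% had one in wild type and 39.6% in knockout. Here any overlap with the window of 1 kb on each side of a start counted. Where several intervals of a list met the windows of a gene, the one with the highest fold gave its values. The values of a gene in the lists can thus come from different sites. The genes in both lists had a median of 59 summit reads in wild type and 30 in knockout. Those in wild type only had 23 and those in knockout only 15. An ATAC interval lay at the start of 90.5% of genes in both, 82.7% in wild type only, 30.2% in knockout only and 22.97% in neither. The genes in wild type only were long, with a median of 38.1 kb against 26.4 kb for both and 15.02 kb for knockout only.

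Families of general cell function had many members with a start interval, and most that differed were in wild type only. The latter held for all genes too, with 18.3% in wild type only and 3.82% in knockout only. The share in wild type only ran from 13.5% of spliceosome genes to 30.6% of vesicle coat genes, around the 18.3% of all genes. In cholesterol synthesis 20 of 20 genes had one in wild type and 15 in knockout. The mevalonate kinase gene MVK had 354 and 176 summit reads, NSDHL, a sterol dehydrogenase gene, 269 and 71, and HMGCS1, which encodes the synthase that feeds the pathway, 157 and 91. The nuclear pore genes numbered 27 and 20 of 29 (93.1% and 69.0%). TPR, the gene of a nuclear basket protein, held 982 and 512 reads and NUP85, of the outer ring, 414 and 146, while RANBP2, of the cytoplasmic filaments, was in wild type only with 69. For vesicle coats 46 of 85 genes (54.1%) were in both, 26 (30.6%) in wild type only and 0 in knockout only. Over all genes the shares were 35.8%, 18.3% and 3.82%. VPS16, of complexes that tether vesicles to lysosomes, with 38 reads and SEC22A, of traffic from the endoplasmic reticulum, with 43 were in wild type only.

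Among genes of RNA handling the share in wild type only was on either side of the 18.3% of all genes, at 13.5% for the spliceosome, 19.0% for RNA polymerase II and Mediator, 21.6% for tRNA synthetases and 23.6% for translation initiation. Of 104 spliceosome and splicing factor genes 73 (70.2%) were in both, 14 in wild type only and 0 in knockout only. Over all genes 35.8% were in both and 3.82% in knockout only. HNRNPUL2, a nuclear RNA-binding protein gene, had 1062 reads in wild type and 402 in knockout, and SRSF2, a splicing activator, 418 and 207. LSM3, of the U6 snRNP, was in wild type only with 65 reads, in an interval that also lay at XPC, a DNA repair gene. Among 58 genes of RNA polymerase II and Mediator 34 were in both and 11 in wild type only. MED11, a Mediator head gene, had 1079 and 431 reads, and MED6 was in wild type only with 26. Of 55 translation initiation genes 34 were in both, 13 in wild type only and 1 in knockout only. EIF2S3, the gamma subunit of eIF2, had 808 and 318 reads, and the knockout-only gene was EIF2AK2, the kinase PKR, with 15. Of 37 tRNA synthetase genes 19 were in both, 8 in wild type only and 1, RARS1, in knockout only with 11 reads. KARS1, the lysyl enzyme, and FARSB, the beta subunit of the phenylalanyl enzyme, were in wild type only with 46 and 60 reads.

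DNA repair genes were in both in 35 of 62 cases, in wild type only in 15 and in knockout only in 2. Those were shares of 56.5%, 24.2% and 3.23%, against 35.8%, 18.3% and 3.82% of all genes. The 2 in knockout only were BRIP1 and XRCC5, with 17 and 15 reads. PMS2, of mismatch repair, had 542 and 134 reads and a width of 2684 and 1278 bp, and ERCC1, of excision repair, 263 and 121 reads. Of 78 chaperone genes 39 (50%) were in both and 19 (24.4%) in wild type only. The mitochondrial chaperonin genes HSPD1 and HSPE1 face each other and shared 1 wild-type interval of 144 reads, which had no start interval beside it in knockout. Its fold over the background was 7.81. In the Krebs cycle 12 of 21 genes (57.1%) were in both and 5 (23.8%) in wild type only. The latter included SDHA and SDHC, of succinate dehydrogenase, with 34 and 33 reads.

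Families used in few cell types had fewer members with a start interval than the 54.2% of all genes in wild type and 39.6% in knockout. Of 390 olfactory receptor genes 5 had a start interval in wild type and 3 in knockout, and of 149 keratin genes 2 and 1. Protocadherin genes numbered 7 and 6 of 65. PCDH9, which encodes a neuronal adhesion protein, was the deepest, with 297 and 114 reads, and PCDH7 had 152 and 92. The wild-type-only and knockout-only members of these families had 9 to 21 reads, around the median of both lists, 15. Glutamate receptors numbered 7 and 3 of 26, neuronal adhesion genes 16 and 10 of 59, and potassium channels 31 and 22 of 95. Their shares in wild type only, 19.2%, 15.3% and 16.8%, were near the 18.3% of all genes. In knockout only they were 3.85%, 5.08% and 7.37%, against 3.82%. NLGN1, the gene of a synaptic adhesion protein, was in wild type only with 59 reads over 3285 bp.

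Developmental genes lay between these families. Of 183 developmental transcription factor genes 78 were in both, 32 in wild type only and 10 in knockout only. The shares were 42.6%, 17.5% and 5.46%, against 35.8%, 18.3% and 3.82% of all genes. The forkhead gene FOXC1 had intervals of 10167 bp and 7646 bp with 498 and 317 reads, and SIX2, a nephron progenitor factor, 5312 bp and 5303 bp with 251 and 123 reads. MEIS2, a homeobox gene, was in wild type only with 75 reads and ISL1 with 33. LHX3, a pituitary and motor neuron factor, was in knockout only with 27 reads and SIX3, of the forebrain, with 17. Axon guidance genes were in both in 29 of 69 cases (42.0%), in wild type only in 18 (26.1%) and in knockout only in 4 (5.80%). EFNA5, an ephrin gene, had 160 and 114 reads, and the Slit receptor gene ROBO1 130 and 59. ROBO2 was in wild type only with 32 reads, and EPHA10, an Eph receptor gene, in knockout only with 20.

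WNT and frizzled genes numbered 13 in wild type and 12 in knockout of 29, which is 44.8% and 41.4% against 54.2% and 39.6% of all genes. FGF genes numbered 12 and 11 of 27, with 7.41% in wild type only against 18.3%. The WNT members in knockout only, 3 of 29 or 10.3% against 3.82%, were the ligand genes WNT1, WNT3A and WNT10B, with 27, 18 and 16 reads. The receptors FZD5 and FZD7 were in both, with 93 and 37 and with 66 and 28 reads. BMP and SMAD genes numbered 28 and 21 of 51 (54.9% and 41.2%). The inhibitor gene SMAD7 had 56 reads in wild type and 21 in knockout, in intervals that did not overlap. Zinc finger genes of the ZNF series numbered 277 and 216 of 509 (54.4% and 42.4%), and solute carrier genes 178 and 126 of 366 (48.6% and 34.4%). SLC17A7, a vesicular glutamate transporter gene, had 510 and 278 reads, and its knockout interval was the wider at 9158 bp against 4099 bp. The Notch targets, given for reference, numbered 19 and 19 of 25 with 17 in both. The median width over those 17 was 3729 bp in wild type and 1204 bp in knockout. Over all genes in both lists it was 1515 bp and 1040 bp. These are widths of the highest-fold interval in each list, which at CCND1, SNAI1 and GATA3 did not overlap between the lists.

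**Figure D4:**
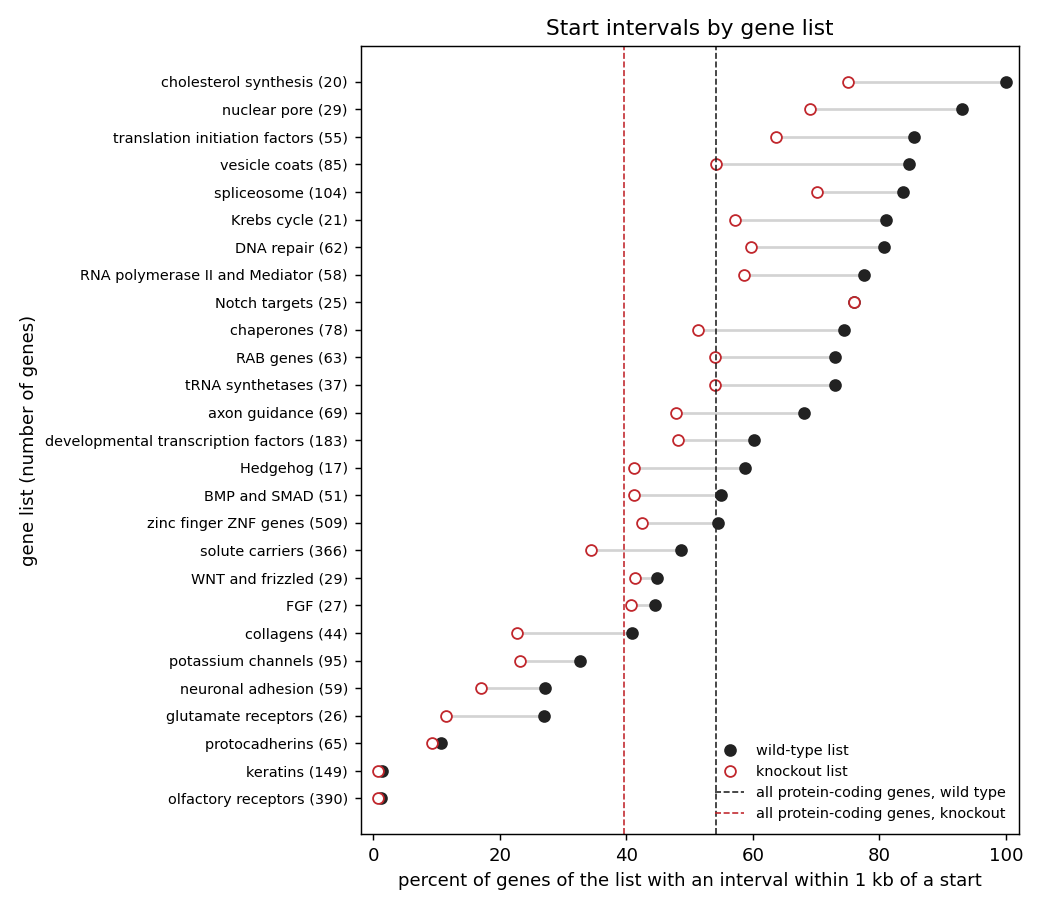
Percent of the genes of each list with an interval within 1 kb of a start in wild type (filled) and knockout (open), with dashed lines at the values of all protein-coding genes, 54.2% and 39.6%. The knockout value lies below the wild-type value in every list drawn except the Notch targets, where they are equal at 76.0%.

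Unshared intervals more than 10 kb from a start were spread over many genes. The 16765 in wild type had 6945 nearest genes, the 13580 in knockout had 5406, and 3490 genes were nearest to intervals of both kinds. PCDH9 was nearest to 116 of the wild-type and 40 of the knockout intervals, and TLE4, the gene of a Groucho corepressor, to 103 and 23. PCDH9 spans 927.5 kb and TLE4 154.9 kb. In knockout, TOMM20, of the mitochondrial import pore, was nearest to 29, against 10 in wild type. The histone demethylase gene KDM4B had 26 against 9 and ZMIZ1, a coactivator gene, 26 against 16.

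The strongest of these distant intervals differed in more than the arm they were called in. In wild type the highest folds outside chromosome 8 were 26.4 in a gene body 23.4 kb from the start of RANBP10, with 97 reads, and 24.6 for an interval of 4104 bp at chr17:13994311-13998414, 73.4 kb from the start of COX10. Others were next to DDI2, ZP3, LRMDA and MEF2C, the last with intervals 119.7 and 121.6 kb from its start. Of the 8 wild-type intervals with the highest fold, 7 were in the wild-type ATAC list. In knockout, an interval at chrX:74967374-74970428, 44.7 kb from the start of NEXMIF, stood apart with a fold of 88.95 and 233 reads. The next ones had folds of 16.3 or less, among them a pair of intervals nearest to RHOU with 38 and 39 reads. Of the 8 knockout intervals with the highest fold, 1 was in the wild-type ATAC list, and the one by NEXMIF was in the knockout ATAC list.

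The widest intervals of all were shared. In wild type, outside chromosome 8, the widest was 44097 bp on chromosome X. Its summit lay outside protein-coding genes, whose nearest start was that of CHIC1 at 283.1 kb, and noncoding genes were not looked at. Next came 38068 bp over the HOXA9 region, 19107 bp by RPL3, a ribosomal protein gene, and 18747 bp by ZNF503, a zinc finger repressor gene. In knockout the 5 widest were 18424 bp in TSC22D3, a glucocorticoid-induced gene, 17474 bp by HOXC9, 17304 bp nearest to LOC101927345, 14569 bp by ZNF629 and 14042 bp at HOXB5. The widest unshared ones were far narrower. Outside chromosome 8 they were, in wild type, 4194 bp by DBNL, 4185 bp by HSPA8, the gene of a constitutive chaperone, 4104 bp nearest to COX10 and 3774 bp by SOX4, a developmental factor gene. In knockout, with the same limit, they were 4187 bp by MARCKSL1, 4177 bp in HAGH and 3760 bp at ADM5. A shared interval inside RBPJ, at chr4:26429892-26431008, held 79022 reads in wild type and was left out of the account of distant intervals.

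Promoter sequences could be compared over 22132 starts, each with 250 bases before and 50 after. Each start was classed by the intervals within 1 kb of it, so the starts of 1 gene can fall in different classes. Promoters of starts with an interval in both lists had a median GC content of 66.3%, those in wild type only 66.7%, those in knockout only 63.7% and those in neither 55.0%. The ratio of observed to expected CpG was 0.85, 0.83, 0.61 and 0.37. TGGGAA on either strand was in 24.2% of promoters of both (23.2 to 25.2), 17.7% of wild type only (16.6 to 19.0), 25.4% of knockout only (22.5 to 28.5) and 23.4% of neither (22.6 to 24.3). Over all promoters the share was 22.7%.

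The same comparison was made where the summit itself lay in the 300 bases. The core was in 29.3% of 1401 promoters with both summits inside (26.9 to 31.7), in 18.1% of 1141 with a wild-type-only summit (15.9 to 20.4) and in 27.4% of 113 with a knockout-only summit (19.5 to 36.6). The CCAAT box, searched as CCAAT on both strands, was in 46.3%, 32.9% and 31.9%, against 34.6% of all promoters. The ETS core CCGGAAG was in 23.2%, 21.7% and 21.2%, against 12.8%. TATAAA was in 3.997%, 3.68% and 10.6% (5.61 to 17.8), against 9.46%. Each motif was searched on both strands, and starts of a gene can share bases. The last base of CCAAT can be the first of TGGGAA, which is seen at HNRNPLL and, on the other strand, at COPE. That joined form was in 1.21%, 0.526% and 0% of these promoters, against 0.434% of all. Outside it, TGGGAA was in 28.3%, 17.5% and 27.4%.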

How the data were processed

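The lists came from 1 library per arm of RBPJ CUT&Tag in HEK293T cells. Per the submitters' processing notes, the tools were MACS2, Bowtie2, Trim Galore and deepTools on build hg38. Tool versions, settings, the calling threshold and which library served as control were not given in the sources used here. Values of the IgG libraries were not analysed here. Each deposited row gives the authors' interval, its fold (a ratio of summit pileup to background), the −log10 of a p-value and of a q-value, and the offset of the summit. The deposited score per interval was not used. The lowest deposited −log10 q was 1.30 in wild type and 1.31 in knockout. These values belong to 1 list, and summit reads are given side by side without scaling.

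From the deposited lists, intervals on other chromosomes or repeated positions were left out, 140 in wild type and 132 in knockout. Summit reads were recovered from the fold and the −log10 p under a Poisson model, and were whole within 0.1% of the −log10 p in 100% of intervals of both lists. The median was 15 in each. Read totals are unknown. Starts came from RefSeq promoters on GRCh38.p14 for 15812 of 19973 protein-coding genes. For the other 4161, which include chromosome 8, either annotated gene end was used. Settings were taken at the summit in the order start, gene body, between genes, with protein-coding genes only. Shares have 95% Clopper-Pearson intervals, which cover counting error only. Scripts in Python 3.11.15 with numpy 2.4.6, pandas 2.3.3 and scipy 1.17.1 were tested on simulated intervals.

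Named by rule were the pairs at starts with the most unequal widths or the farthest summits, the unshared and shared intervals over 10 kb from a start with the highest fold, the nearest genes with most such intervals, the widest intervals of each class, and the members of each gene list with the highest fold in each class. Some genes selected by the rule are not reported here. The intervals, gene lists and rules were chosen with earlier results of these data known. The width limits, the read bands, the strand-aware gene set and the printed promoters were chosen after the data were seen.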

Additional observations from a re-analysis of the deposited data

How the results depend on the processing

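No paired analysis was possible because each arm had 1 library. Alternatives were run for 13 results, namely the shares, width ratios, summit distance, start shares, gene counts and ATAC overlaps of unshared intervals given here. Leaving out chromosome 3 moved none of them beyond its counting interval or by 1.5 times, and leaving out genes without a strand-aware start, run for the 3 gene counts, moved none by 1.5 times. Outside these, the order of shared and unshared wild-type intervals at starts in their ATAC overlap reversed at widths of 400 to 600 bp, from 88.6% and 68.2% to 53.2% and 61.1%. The cause was not tested. The share of wild-type and of knockout intervals that were shared was 32.1% and 38.1%. It was 17.3% and 20.0% when the overlap had to cover 50% of both intervals, 20.6% and 23.8% with summits within 250 bp, and 41.5% and 85.0% among intervals with a −log10 q of at least 10. The ratio of shared to unshared width was 2.37 in wild type and 1.72 in knockout, and in the same order of alternatives it was 2.50 and 1.86, then 2.52 and 1.61, then 1.79 and 1.18. The summit distance of pairs was 109 bp with 50% overlap and 69 bp at the q limit, instead of 145. Shares at a start for shared wild-type, unshared wild-type and unshared knockout intervals were 51.8%, 17.9% and 11.2% with 50% overlap, and 51.8%, 16.5% and 9.12% with summits within 250 bp. They were 69.3%, 51.9% and 16.6% at the q limit, and 49.7%, 20.03% and 10.1% with a start window of 2 kb. Away from starts, unshared wild-type and knockout intervals met an ATAC list in 14.6% and 7.002% of cases with 50% overlap and in 14.01% and 6.33% with summits within 250 bp. They did so in 56.6% and 10.6% at the q limit and in 11.2% and 2.97% at 400 to 600 bp. At the q limit 3839 genes had a start interval in both lists, 3642 in wild type only and 173 in knockout only, instead of 7152, 3665 and 762. Lists there held fewer intervals by construction. The q limit was applied to both lists before they were matched, which left 10735 wild-type and 5313 knockout intervals. An interval unshared there, or a gene in 1 list only, can thus have a partner in the other list below the limit. The unequal sizes also bear on the shares of 41.5% and 85.0%. Otherwise the cause was not tested. The part of depth, cell clone and library in every difference cannot be told apart from that of genotype, since each arm was 1 library.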
